A study of Homo sapiens with 6 samples.

Results

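TIFA, the proteins that act with it and a group of NF-kB feedback targets were followed across the 6 expression arrays of a study that transfected the transcription factor MIST1 into gastric cancer cells. The group has 10 listed genes: TIFA, its partners ALPK1, TRAF2 and TRAF6, and the feedback targets NFKBIA, NFKB2, RELB, TNFAIP3, BIRC3 and CXCL8. They were chosen by name, with TIFA included because its signal was known to be higher in the MIST1 arrays. Every probe set that the platform annotation assigns to only 1 of these genes was taken. Of the 10 genes, 7 had such a probe set, 15 probe sets in all, and ALPK1, TRAF2 and BIRC3 were not analysed here. All 7 passed the filter on dim signals and were among the 13738 genes tested.

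The cells were AGS and HGC-27, established human gastric cancer lines, and each line gave 3 arrays. The parental array of a line came from untransfected cells. The GFP control array came from cells nucleofected with 3 µg of empty vector and 1.5 µg of the GFP plasmid pmaxGFP. The MIST1 array came from cells given 3 µg of a MIST1 plasmid with 1.5 µg of pmaxGFP. Transfected cells of both kinds were sorted for GFP after 24 h and grown for a further 24 h, whereas the parental cells are labelled as untransfected and carry no sorting label. Each condition therefore has 1 array per line, and in comparisons of conditions the 2 lines serve as the 2 replicates, so p-values there measure the spread between these 2 lines. In comparisons of the lines the conditions take that place. Expression was transient, so a MIST1 array reports a sorted population and not a clone.

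The ALPK1-TIFA pathway senses ADP-heptose, a sugar made by Gram-negative bacteria, and in the stomach it is known for the response of epithelial cells to Helicobacter pylori. The kinase ALPK1 phosphorylates TIFA, a small adaptor with a forkhead-associated domain, which then oligomerises and recruits the ubiquitin ligases TRAF6 and TRAF2. Ubiquitin chains activate the TAK1 and IKK kinases, IkB proteins are degraded, and NF-kB dimers enter the nucleus. There they induce their own inhibitors as well as chemokines and survival factors. MIST1 (gene symbol BHLHA15) is a basic helix-loop-helix factor of secretory cells that binds E-box sequences, and the study asked which genes it targets directly.

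Array medians lay between 49.1 and 52.0 intensity units. The BHLHA15 probe set read 66.3, 75.8 and 72.5 on the parental, GFP control and MIST1 arrays of AGS, and 41.1, 61.9 and 58.7 on those of HGC-27. It was therefore not higher on the arrays labelled MIST1 than on the GFP control arrays, and the sources used here do not say whether it lies in the transfected sequence. Throughout, MIST1 array means the array labelled MIST1. Epithelial markers separated the lines, with 5 of 5 above the overall median on all AGS arrays and 1 of 5 on all HGC-27 arrays. EPCAM read 5681 to 7098 in AGS and 23.0 to 34.4 in HGC-27. The mesenchymal marker VIM read 12532 to 13731 in HGC-27 and 250.2 to 298 in AGS. Of the other mesenchymal markers, ZEB1 read 1013 to 1227 in HGC-27 and 13.6 to 24.9 in AGS. CDH2 did not separate the lines, at 47 to 57.45 in AGS and 44.36 to 57.63 in HGC-27. Of the 5 leukocyte markers, LYZ read 2013 to 4026 in AGS and 5.49 to 7.38 in HGC-27, while CD79A reached at most 83.2, CD3E 66.7, PTPRC 52.4 and CD14 23.6 on any array. All 3 control probe sets for 18S ribosomal RNA were lower on the transfected arrays. The middle one read 1142 and 371 on the parental arrays of AGS and HGC-27 and 46.8 to 52.7 on the 4 transfected ones. The 3′ one read 1791 (AGS) and 1315 (HGC-27) on the parental arrays and 636 to 812 on the others, and the 5′ one 566 and 141 against 37.2 to 109.

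The promoters of these genes are shown for the 2 kinds of element that bear on the study, the E-box that basic helix-loop-helix factors bind and the kappaB element that NF-kB binds. The windows are RefSeq's on GRCh38.p14, of which the 250 bases before each start were searched, and 9 of the 10 genes had one. An E-box (CANNTG, both strands) was found in 61.8% of all 35116 windows, and the kappaB consensus, also searched on both strands, in 5.21%. The kappaB consensus was present in 4 of the 9 genes, NFKBIA, TNFAIP3, NFKB2 and BIRC3. An E-box was present in TIFA, TRAF6, TNFAIP3, NFKB2, BIRC3 and CXCL8, and absent in ALPK1, TRAF2 and NFKBIA. The stretches below are a selection, with E-boxes printed for TIFA and TRAF6 only. Capitals mark the matched letters in the stretches below, each read 5′ to 3′ on the gene's strand.
TIFA E-box, chr4:112285978-112286003, minus strand: agaaaggcgcCAGCTGccgggtcacc
TRAF6 E-box, chr11:36510422-36510447, minus strand: aacgaattccCAGGTGggacacccga
NFKBIA kappaB, chr14:35404811-35404840, minus strand: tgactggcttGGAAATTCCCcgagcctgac
TNFAIP3 kappaB, upstream match, chr6:137867182-137867211, plus strand: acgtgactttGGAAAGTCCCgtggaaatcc
TNFAIP3 kappaB, downstream match, chr6:137867194-137867223, plus strand: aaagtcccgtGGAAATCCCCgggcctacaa
NFKB2 kappaB, middle start, chr10:102394461-102394490, plus strand: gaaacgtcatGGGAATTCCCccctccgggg
NFKB2 kappaB, last start, chr10:102395674-102395703, plus strand: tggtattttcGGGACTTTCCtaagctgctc

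The TIFA E-box lay 89 to 84 bases before the gene's start and was the only CANNTG match in its window. The E-box with a TA centre (CATATG) was in 2.63% of all windows and in no window of the 9 genes. The NFKBIA kappaB match lay 81 to 72 bases before the start, and the TNFAIP3 matches 67 to 58 and 55 to 46 bases before it. The CXCL8 window held 1 E-box and no match to the kappaB letters used. Those letters are not listed here, and a kappaB element that departs from them gives no match. A window without a match is therefore not shown to lack a kappaB element. A match describes letters only and is no measure of binding.

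TIFA was highest on the MIST1 array of both lines, on each of its 3 probe sets. On its brightest probe set (226117_at) AGS read 399 in the parental array, 417 in the GFP control and 889.5 with MIST1. HGC-27 read 484, 561 and 1027 in the same order. The GFP control array lay close to the parental array in each line and the MIST1 array stood apart, at a ratio to the GFP control of 2.13 for AGS and 1.83 for HGC-27. Against the parental array the ratios were 2.23 and 2.12. TIFA was chosen for this pattern, so these ratios are a description without a test. In bulk RNA, a change in the share of cells carrying a transcript and a change in its amount per cell cannot be told apart.

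The other TIFA probe sets gave smaller ratios to the GFP control. Probe set 235971_at read 71.3, 58.4 and 84.8 on the AGS arrays and 46.4, 55.2 and 80.8 on the HGC-27 arrays, ratios of MIST1 to GFP control of 1.45 and 1.46. Probe set 238858_at read 26.7, 53.0 and 71.7 on the AGS arrays and 50.4, 67.7 and 101 on the HGC-27 arrays, ratios of 1.35 and 1.50. Both are dimmer than 226117_at and lie nearer the overall median of 50.5. On 238858_at the GFP control was itself 1.99-fold above the parental array in AGS, so there the step at transfection exceeded the step with MIST1.

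**Figure D1:**
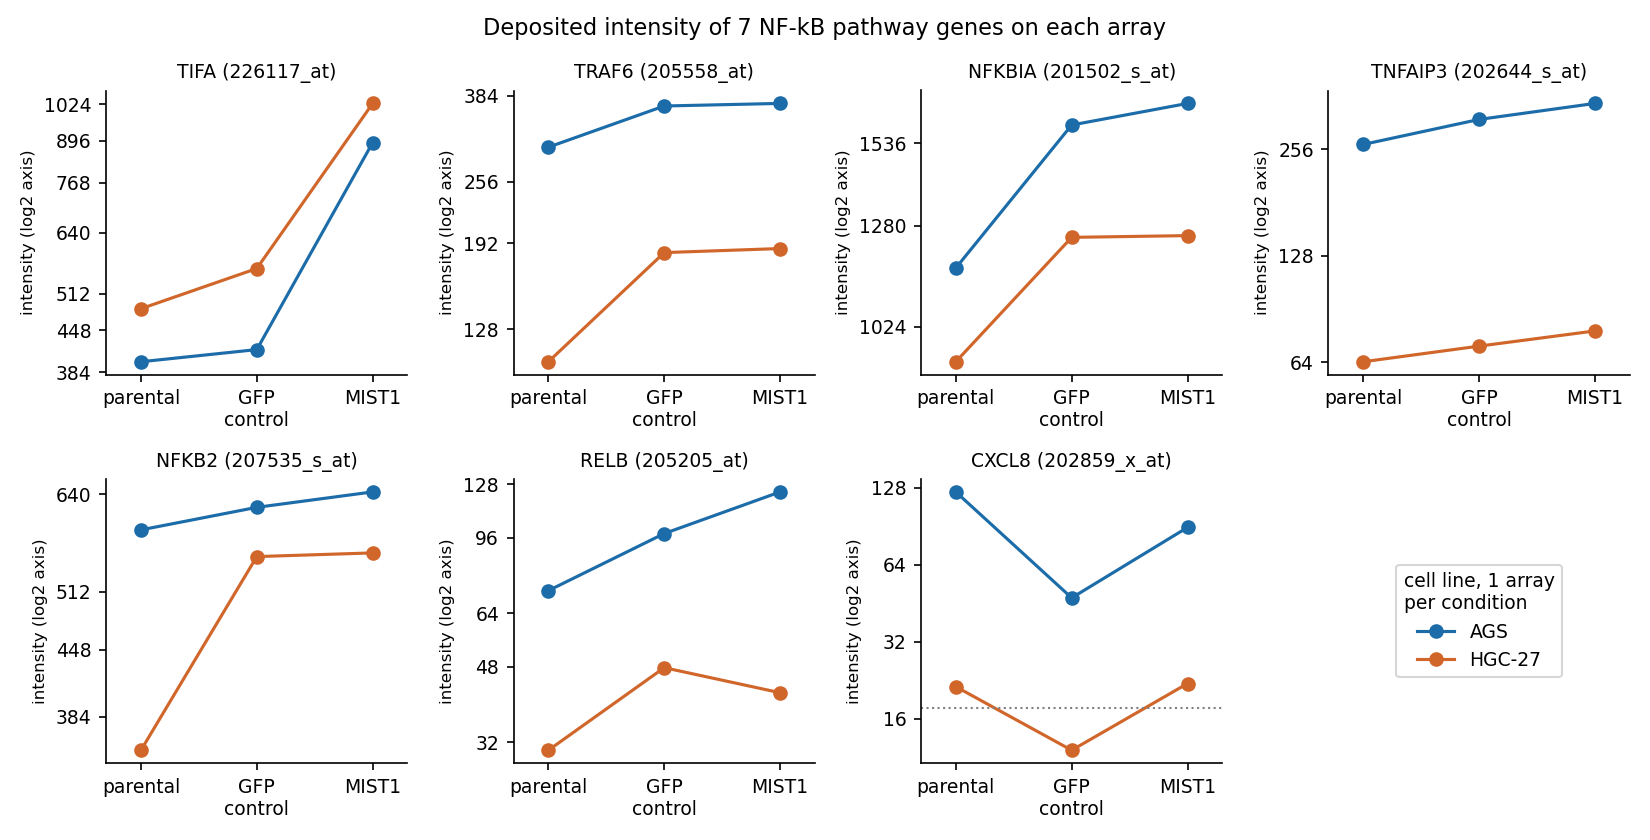
Intensity on a log scale for the probe set with the highest mean of each of the 7 genes on the 6 arrays, by line and condition, 1 point per array. TIFA stands at 417 and 561 on the GFP control arrays and at 889.5 and 1027 on the MIST1 arrays. TRAF6 and NFKBIA sit at nearly the same height on those arrays. CXCL8 is also higher on the MIST1 arrays, at 89.4 against 47.5 in AGS and 21.99 against 12.1 in HGC-27.

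TRAF6, the ubiquitin ligase that oligomerised TIFA recruits, had nearly equal signals on the GFP control and MIST1 arrays. Probe set 205558_at read 301, 366 and 370.0 on the AGS arrays and 110.0, 184 and 187 on the HGC-27 arrays (parental, GFP control, MIST1). On the log2 scale MIST1 minus GFP control was 0.02, with a 95% interval from -0.40 to 0.45 by limma (n = 2 lines). The second TRAF6 probe set (227264_at) read 83.1, 128 and 162 on the AGS arrays and 173, 184 and 202 on the HGC-27 arrays, log2 differences of 0.33 and 0.13.

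Among the inhibitors that NF-kB induces, NFKBIA encodes IkB-alpha, which holds NF-kB in the cytoplasm. NFKBIA (201502_s_at) read 1166, 1599 and 1678 on the AGS arrays and 948, 1248 and 1252 on the HGC-27 arrays. Its MIST1 arrays lay at the level of the GFP control arrays, at a log2 difference of 0.04 with a 95% interval from -0.20 to 0.28 by limma. The dimmer NFKBIA probe set (231699_at) went the other way, at -0.45 in AGS and -0.44 in HGC-27. TNFAIP3 encodes A20, a ubiquitin-editing enzyme that shuts the pathway off. TNFAIP3 (202644_s_at) read 264, 311 and 345 on the AGS arrays and 64.2, 71.0 and 78.4 on the HGC-27 arrays, a log2 difference of 0.15 (SE 0.16) between MIST1 and GFP control. Its second probe set (202643_s_at) gave 0.28 and 0.27 in the 2 lines.

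NFKB2 and RELB encode the p100 precursor and the RelB subunit of the non-canonical arm. NFKB2 (207535_s_at) read 589.8, 621 and 643 on the AGS arrays and 356, 555 and 559 on the HGC-27 arrays, and its log2 difference between MIST1 and GFP control was 0.03 (SE 0.17). On a dimmer NFKB2 probe set (209636_at) the differences were 0.57 and 0.33, and another NFKB2 probe set (211524_at) was below the overall median on all arrays. RELB (205205_at) read 72.2, 98.1 and 123 on the AGS arrays and 30.6, 47.8 and 41.7 on the HGC-27 arrays. Its MIST1 array was above the GFP control in AGS, by 0.32, and below it in HGC-27, by a log2 difference of -0.19.

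CXCL8, the neutrophil chemokine interleukin-8, was read by a probe set (202859_x_at) whose suffix marks possible cross-hybridisation. It gave 123, 47.5 and 89.4 on the AGS arrays and 21.4, 12.1 and 21.99 on the HGC-27 arrays. The GFP control array was the lowest in each line, and in HGC-27 it fell under the floor of 17.6 that was set before taking logs. The floored log2 differences between MIST1 and GFP control were 0.91 in AGS and 0.32 in HGC-27. CXCL8 passed the filter only through AGS, where 2 arrays were above the overall median. The second CXCL8 probe set (211506_s_at) did not pass and read 8.32 to 25.6.

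None of the 13738 genes passed an adjusted p of 0.05 (limma with Benjamini-Hochberg adjustment) between MIST1 and GFP control, 0% called, while 184 genes, 1.34%, had an unadjusted p under 0.05. Of the 6 genes other than TIFA, each read by its brightest probe set, 0 were called and 0 had an unadjusted p under 0.05. In 5 of the 6 the MIST1 array was above the GFP control array in both lines, against 24.5% of all genes. The differences of TRAF6, NFKBIA and NFKB2 were at most 0.04, and their sign turned when single arrays were left out. CXCL8 had the largest, 0.62 (SE 0.31), with an adjusted p of 0.99998 by limma.

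**Figure D2:**
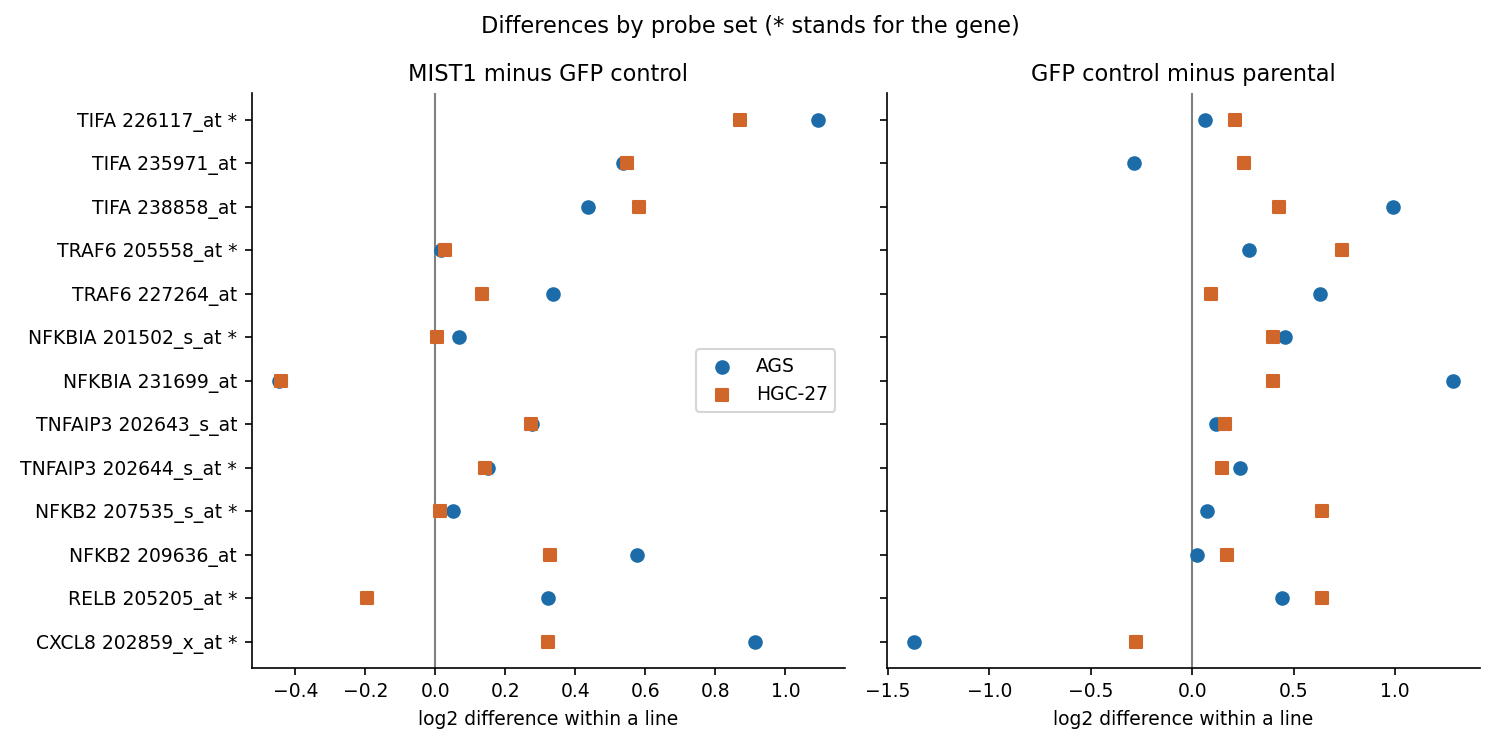
Log2 difference between the MIST1 and GFP control arrays for each probe set of the 7 genes that passed the filter, 1 point per line. All 3 TIFA probe sets lie above 0 in both lines, and the 2 NFKBIA probe sets lie on opposite sides of 0.

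A wider set of 99 pathway genes in 5 lists had 92 genes on the array and 73 past the filter, and 0 of them were called between MIST1 and GFP control. The median difference over the 73 was 0.02. TRAF5, a TRAF family adaptor of TNF-superfamily receptors, was the 1 gene with an unadjusted p under 0.05, at 0.65 (SE 0.19). It read 353, 237 and 339 on the AGS arrays and 267, 239 and 415 on the HGC-27 arrays, so in AGS the MIST1 array returned to about the parental level and in HGC-27 it was above both controls. In a fit on the 4 transfected arrays alone, where 0.415% of all genes were called, TRAF5 had an adjusted p of 0.0225 by limma, and it was also called without the parental array of AGS (0.415% of all genes called) or of HGC-27 (0.371%). The fits with 1 parental array left out are not further tests of TRAF5. The parental array that remains is fitted exactly by its own condition, so for this comparison they rest on the same 4 transfected arrays. SHARPIN, a subunit of the linear ubiquitin ligase, lay at -0.31, with -0.40 in AGS and -0.23 in HGC-27. Values for the other lists were 0.32 for NFKBIE and 0.13 for RELA, 0.27 for IER3 and -0.23 for PTX3. TIFAB, a relative of TIFA, lay at 0.09 and TRAF7 at -0.04.

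Transfected and sorted cells without the MIST1 plasmid were compared with parental cells through the GFP control and parental arrays. Nucleofection, plasmids, GFP, sorting and the growth after it cannot be told apart in this design. In this comparison 0.269% of all genes were called, and 0 of the 7 genes were. The 4 genes with an unadjusted p under 0.05 were NFKBIA, at 0.43 (SE 0.10, adjusted p = 0.0871 by limma), TRAF6, at 0.51 (SE 0.18), RELB, at 0.54 (SE 0.22), and CXCL8, at -0.83 (SE 0.31). At that level 23.2% of all genes passed. With 1 array left out the value ranged from -1.25 to -0.41 for CXCL8, from 0.28 to 0.74 for TRAF6 and from 0.36 to 0.72 for RELB. The GFP control array was above the parental array in both lines for 6 of the 7, against 37.3% of all genes, and below it in both for CXCL8, against 23.5% of all genes. The median over the 7 was 0.36, against 0.07 over all genes. Dropping the parental array of AGS gave 3 calls (NFKB2, NFKBIA and TRAF6) and dropping that of HGC-27 gave 2 (CXCL8 and NFKBIA), with 1 line then carrying the comparison. In those fits 38.8% and 33.4% of all genes were called. The 18S probe sets were lower on the GFP control arrays than on the parental ones in both lines, and their part in these values was not tested.

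TIFA itself lay at 0.14 (SE 0.13) in that comparison, NFKB2 at 0.36 (SE 0.17; 0.084 to 0.63 with 1 array left out) and TNFAIP3 at 0.19 (SE 0.16). Of the 73 wider pathway genes 0 were called, and the lowest adjusted p, 0.0671 by limma, belonged to CYLD, a deubiquitinase that restrains the pathway, at 0.67. With the AGS parental array left out 28 were called, and with that of HGC-27 left out 21, in the fits that called 38.8% and 33.4% of all genes. A fit on the 4 arrays compared called 5, where 6.66% of all genes were called.

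Against the parental arrays, the MIST1 arrays differed at 3.4% of all genes and at 0 of the 6 genes other than TIFA. NFKBIA came nearest, at 0.46 (adjusted p = 0.0595 by limma), followed by TRAF6 at 0.53 (adjusted p = 0.126) and RELB at 0.61 (adjusted p = 0.148). Of the 73 wider genes 3 rose and 0 fell, against 2.19% and 1.21% of all genes. TNFRSF12A, the receptor of the cytokine TWEAK, rose by 0.96 (SE 0.17, adjusted p = 0.0436) and read 2254, 3042 and 3521 on the AGS arrays and 404, 842 and 977 on the HGC-27 arrays. MALT1, a paracaspase of the CARD-BCL10 complex, rose by 0.67 and read 717, 1087 and 1200 on the AGS arrays and 323, 457 and 488 on the HGC-27 arrays. CYLD rose by 0.71 and read 181, 289.98 and 306 on the AGS arrays and 417, 665 and 657 on the HGC-27 arrays. Their GFP control minus parental values, which share the parental arrays, were 0.75, 0.55 and 0.67. The 3 calls were lost, with 0 left, without the floor, with the floor at the median, without the filter, with the mean of a gene's probe sets, without the variance trend and without the cell line block. A fit on the 4 arrays compared gave 5 calls, where 6.17% of all genes were called. Leaving out the parental array gave 31 calls for AGS and 23 for HGC-27, in fits that called 38.9% and 38% of all genes. Leaving out the HGC-27 GFP control array gave 7, where 6.38% of all genes were called. Among the 6 genes, leaving out the AGS parental array gave 3 calls (TRAF6, NFKBIA and NFKB2), and leaving out that of HGC-27 gave 1 (NFKBIA).

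The lines differed far more than the conditions. Between the 3 AGS and the 3 HGC-27 arrays 60.1% of all genes were called, 33.1% higher and 27.1% lower in AGS. Of the 7, 6 were called, 5 higher in AGS (TRAF6, NFKBIA, TNFAIP3, RELB and CXCL8) and 1 lower (TIFA). RELB and CXCL8 passed the filter only through their AGS arrays, so their direction was partly fixed by it. TNFAIP3 had the largest difference, 2.10 (SE 0.13, adjusted p = 1.6e-05 by limma), a 4.29-fold higher level in AGS, and its second probe set gave 6.12-fold. Its AGS arrays read 264 to 345 and its HGC-27 arrays 64.2 to 78.4, with no overlap. CXCL8 differed by 1.99 (SE 0.25, adjusted p = 0.00053), which the floor in HGC-27 understates.

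RELB was 2.42-fold higher in AGS (1.28, SE 0.18, adjusted p = 0.000861 by limma), reading 72.2 to 123 there and 30.6 to 47.8 in HGC-27. NFKBIA differed by 0.36 (SE 0.08, adjusted p = 0.00829), although its lowest AGS array, the parental one at 1166, lay below 2 HGC-27 arrays. This call was lost with quantile normalization (adjusted p = 0.0607), without condition in the fit (adjusted p = 0.120) and without any 1 of the 4 transfected arrays. NFKB2 also differed by 0.36 (SE 0.14) and did not pass (adjusted p = 0.0640), although its arrays did not overlap. Its second probe set (209636_at) lay at -0.38 (adjusted p = 0.0526), with arrays that overlapped. Without the parental array of either line the brightest probe set passed, at 0.18. For 5 of the 7 genes (TRAF6, TNFAIP3, NFKB2, RELB and CXCL8) all AGS arrays lay above all HGC-27 arrays on the brightest probe set, against 34.1% of all genes. RELB and CXCL8 are in this count although they passed the filter only through AGS. TRAF6 and NFKB2 leaned the other way on their second probe sets, at -0.63 and -0.38. The count is therefore a description of the brightest probe sets.

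TRAF6 gave opposite answers on its 2 probe sets. Probe set 205558_at was 2.21-fold higher in AGS (1.14, SE 0.14, adjusted p = 0.000535 by limma). Probe set 227264_at was 1.55-fold higher in HGC-27 (-0.63 for AGS minus HGC-27, SE 0.17, adjusted p = 0.0175 in a fit of each probe set by itself, where 59.8% of 25948 were called). The AGS and HGC-27 arrays did not overlap on either probe set, so the direction of the TRAF6 difference depends on the probe set. With the mean of both, the call was lost (0.25, adjusted p = 0.0761).

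TIFA was the 1 gene of the 7 called higher in HGC-27, by a small margin (-0.30 for AGS minus HGC-27, SE 0.10, adjusted p = 0.0416 by limma). Its conditions overlapped between lines, 399 to 889.5 in AGS and 484 to 1027 in HGC-27. Of its other probe sets, 238858_at lay at -0.59 (adjusted p = 0.0307) and 235971_at at 0.26 (adjusted p = 0.270). The TIFA call was lost with the mean of its probe sets (adjusted p = 0.134), without the variance trend (adjusted p = 0.0521), without condition in the fit (adjusted p = 0.534) and without any 1 of the 4 transfected arrays (adjusted p = 0.172 to 0.372).

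Of the 73 wider pathway genes 41 were higher in AGS and 11 lower, where 33.1% of all genes were higher and 27.1% lower. Their median was 0.48, against 0.06 over all genes. The filter fixed part of this: 9 of the 41 had no HGC-27 array above the overall median, and 4 of the 11 had no AGS array above it. These are 22% and 36.4%, against 14.3% and 23.4% of all genes called higher and lower in AGS. Of the receptors and adaptors 11 of 17 were higher in AGS and 1 lower. IRAK1, the kinase next to MYD88, lay at 6.61 on its brightest probe set, which read 3189 to 4226 in AGS and 36.5 to 43.0 in HGC-27, and at 3.31 on its other one. LTBR, the lymphotoxin receptor, lay at 0.01 on its brightest probe set and at 5.34 on its other one, which was noticed after its values were seen. The lipopolysaccharide receptor TLR4 lay at 3.54, TNFRSF1B at 2.66 and the adaptor MYD88 at 2.61. IRAK1, TLR4 and TNFRSF1B had no HGC-27 array above the overall median, so the filter partly fixed their direction. TNFRSF1B read 7.36 to 23.4 in HGC-27, with the lower values under the floor, which understates its difference.

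Of the ubiquitin ligases and kinases 10 of 19 were higher in AGS and 3 lower. SHARPIN lay at 1.73, TAB3 at 1.65 and MAP3K7, which encodes TAK1, at 0.90, while IKBKG, the regulatory subunit of IKK, lay at -0.83. Of the Rel subunits, IkB proteins and negative regulators 8 of 14 were higher and 2 lower, the lower ones being CYLD at -1.17 and the subunit RELA at -0.83. NFKBIZ lay at 0.89 and NFKBIE at 0.79.

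Of the inflammatory and survival targets 11 of 21 were higher in AGS and 4 lower. LIF lay at 4.57, TNFAIP2 at 4.48 and PTGS2, which encodes cyclooxygenase-2, at 4.35, and these 3 were under the floor on all HGC-27 arrays. The adhesion molecule VCAM1 lay at -4.58 and the chemokine CCL2 at -4.45, with CCL2 under the floor on all AGS arrays. These 5 differences are therefore understated. ICAM1 lay at 3.69 and the caspase-8 regulator CFLAR at 2.86. LIF, TNFAIP2, PTGS2 and ICAM1 passed the filter only through AGS, and VCAM1 and CCL2 only through HGC-27, so their direction was partly fixed by it. Of the 52 called genes 33 had further probe sets, and 71 of those 72 had the same sign. Over all 73 genes, 80 of 93 further probe sets had the same sign, and 5 genes had one that was called in the opposite direction: ITCH among the called genes, and CXCL2, NOD1, RBCK1 and TAX1BP1 among those not called.

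**Figure D3:**
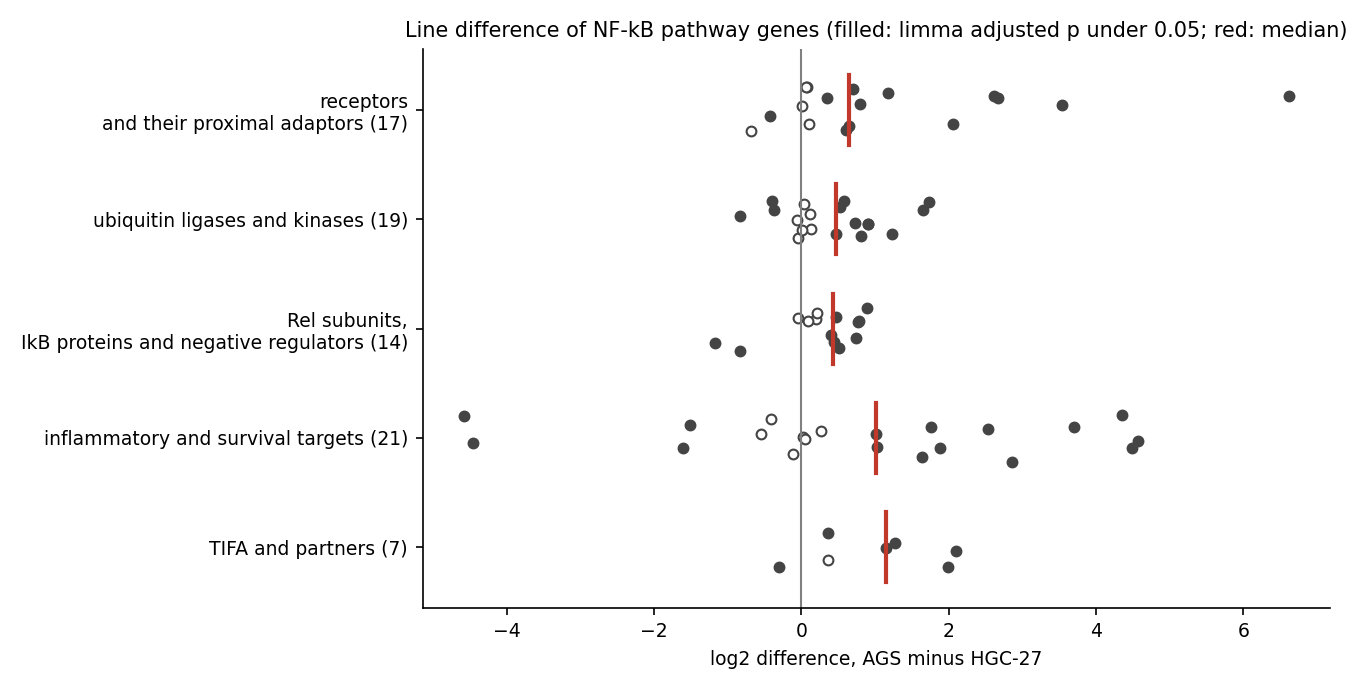
Log2 difference between AGS and HGC-27 for the tested genes of the pathway lists and for TIFA and its partners, 1 point per gene. The list of relatives is not drawn, so TRAF4 and TRAF7 are absent. The targets span from -4.58 for VCAM1 to 4.57 for LIF, and IRAK1, at 6.61, is the highest point.

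The step from parental to transfected cells was also compared between the lines, as the difference between HGC-27 and AGS. The step is the mean of the GFP control and MIST1 arrays minus the parental array, so each line has 1 parental array and its GFP control and MIST1 arrays stand in as replicates. The p-values therefore measure the spread between those 2 conditions and not between cultures. At this contrast 10.2% of all genes were called, 7.53% with a positive value, that is, a step that was higher in HGC-27 or lower in AGS. TIFA was left out, since MIST1 arrays enter the contrast. Of the other 6 genes NFKB2 was called, at 0.55 (SE 0.13, adjusted p = 0.0481 by limma). It read 356 in the parental array and 555 and 559 in the transfected arrays of HGC-27, against 589.8, 621 and 643 in AGS. The step was 0.65 in HGC-27 and 0.10 in AGS. On its second probe set the steps were nearly equal, 0.34 in HGC-27 and 0.31 in AGS. The NFKB2 call was lost with quantile normalization, the floor at the median, no filter, the mean of probe sets or no variance trend, and without any 1 of the 4 transfected arrays. TRAF6 lay at 0.47 (adjusted p = 0.1003).

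Of the 73 wider genes 9 were called with a positive value and 0 with a negative one, against 7.53% and 2.66% of all genes. The median over the 73 was 0.19, and that over all genes was also positive, at 0.12. Of the 9 called genes, 7 were inflammatory and survival targets. The sign came from different steps. BCL2L1, which encodes the survival protein BCL-XL, had steps of 0.95 in HGC-27 and 0.20 in AGS, and the early-response gene IER3 steps of 1.06 and -0.03. NFKBIZ, a nuclear IkB protein, had steps of -0.15 in HGC-27 and -1.06 in AGS, and SOD2, the mitochondrial superoxide dismutase, of -0.16 and -1.13, so there the larger step was a lower signal in AGS. CSF1, a growth factor of macrophages, had steps of 0.43 and -1.05, and TAB1, which binds TAK1, of 0.48 and -0.39.

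The remaining 3 of these genes were limited by the floor or the filter. CCL2 was under the floor on all AGS arrays, so its AGS step was set to 0, and it read 114, 668 and 745 in HGC-27. PTGS2 was under the floor on all HGC-27 arrays, so that step was set to 0, and it read 549, 280.0 and 299 in AGS. PLAU, which encodes urokinase, passed the filter only through the transfected HGC-27 arrays, and read 35.4, 84.6 and 77.6 there and 24.6, 15.3 and 18.9 in AGS. Without any 1 of the 4 transfected arrays 0 of the 9 calls were left. The 18S probe sets were lower on the transfected arrays of both lines, and their part in the step was not tested.

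The genes whose pattern was most like that of TIFA were found by Pearson's r over the 6 arrays, after removing each line's mean, among 3337 genes that varied enough. They were GLYAT (r = 0.997), FIGN (0.990), IQCN (0.986), LOC730101 (0.985), ACSL5 (0.982) and PIERCE2 (0.981). FIGN read 117, 135 and 237 on the AGS arrays and 84.5, 88.9 and 145 on the HGC-27 arrays, the same order of arrays as TIFA. GLYAT and IQCN were dim, at 41.3 to 78.7 and 24.3 to 70.4, around the overall median of 50.5. ACSL5 read 18.3 to 26.9 in HGC-27, near the floor of 17.6. Of the TIFA partners and targets that varied enough, RELB ranked 564 (r = 0.65), TRAF6 905 (0.57) and CXCL8 1973 (0.17). TNFAIP3 (0.87), NFKBIA (0.65) and NFKB2 (0.54) varied too little to be ranked. The points share arrays, and 4 of the 6 are controls, so these values are a description.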

How the data were processed

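RNA from 6 samples was read on 1-colour Affymetrix arrays of 54675 probe sets. The values are the authors' deposited intensities, linear and not log-transformed. The design text names dChip as the analysis tool, but the sources used here do not state the scaling behind the deposited values. The number of arrays, 1 per line and condition, limits the precision. Probe sets were named by the platform annotation: 41097 with 1 gene, 1801 with several and 11777 with none listed.

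Values were floored at their 25th percentile (17.6) and log2-transformed. A probe set passed if at least 2 of 6 arrays exceeded the median of 50.53, and the one with the highest mean stood for its gene. limma 3.58.1 (R 4.3.3) fitted condition with cell line as a block, since arrays of 1 line share their cells, with Benjamini-Hochberg adjustment over 13738 genes and a threshold of 0.05. The block is the cell line given in the labels. All 10 listed genes are named. From the 5 lists, up to 8 called genes with the largest differences per list and comparison are eligible, otherwise the 2 largest. The 6-array fit was tested on simulated data for MIST1 minus GFP control only, with equal noise for all genes. That simulation did not cover the step between the lines or the fits with arrays left out. Members and lists were chosen with earlier results of these data known. Alternatives are described in the closing section.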

Additional observations from a re-analysis of the deposited data

Results flagged for a closer look

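NFKB2 was marked because the step from parental to transfected cells differed between the lines. The difference of log2 differences, HGC-27 against AGS, was 0.55 by limma, from a parental intensity of 356 in HGC-27 against 589.8 in AGS. The steps were 0.65 and 0.10 on this probe set, and 0.34 and 0.31, nearly equal, on its second probe set. The test has 1 parental array per line. Groups of 3 arrays were too small for a search for arrays that stand apart within a group.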

How the results depend on the processing

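Each condition has 1 array per line, which left 2 residual degrees of freedom in the 6-array limma fits and 1 in the 4-array fits, and dim signals were floored. Apart from leaving out arrays, the log2 differences of the 7 genes kept direction and side of the threshold in 229 of 244 cases, while 11 lost the call, 1 gained it and 3 reversed. Leaving out each array in turn kept 147 of 180, with 12 lost, 11 gained and 10 reversed. The alternatives for MIST1 minus parental, for the step between lines and for single probe sets were chosen after seeing the data. With quantile normalization 6 of the pathway list genes were called for MIST1 minus parental, against 3, and 5 for the step between the lines, against 9. No replicate block (cell line left out of the fit) gave 0 list genes for MIST1 minus parental, as did no floor, the floor at the median, no filter, the mean of all probe sets and no variance trend. The step between the lines gave 4 list genes with no filter, 3 with no variance trend and 2 when the median was the floor, and 0 of the TIFA partners and targets (NFKB2 lost) with those 3, quantile normalization or the mean of all probe sets. Fits on only the 4 arrays compared called 5 list genes for GFP control minus parental (BCL2L1, CCL2, GADD45B, MYD88 and TNFRSF12A), 5 for MIST1 minus parental and 1 (TRAF5) for MIST1 minus GFP control. For the changed normalization, floor, filter, probe set mean, variance trend and block, the share of all genes called is not given here. Those counts therefore do not separate a change in the lists from a change over all genes. With no filter 92 list genes were tested, against 73. The causes were not tested.

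The mean of all probe sets reversed NFKBIA for MIST1 minus GFP control (-0.20), NFKB2 for AGS minus HGC-27 (-0.0055) and TRAF6 for the step between the lines (-0.087). The TIFA ratio to the GFP control in AGS was 1.61 with that mean, 1.45 on 235971_at and 1.35 on 238858_at, and in HGC-27 1.59, 1.46 and 1.50. Its ratio to parental in AGS was 2.33 with quantile normalization, 1.92 with the mean, 1.19 on 235971_at and 2.69 on 238858_at, and in HGC-27 2.01, 1.95, 1.74 and 2.01.

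With 1 array left out, list genes called ranged from 0 to 28 for GFP control minus parental, 0 to 1 for MIST1 minus GFP control and 2 to 31 for MIST1 minus parental, and were 0 for the step between the lines. The 7 genes gave 0 to 3 calls for GFP control minus parental, the 6 without TIFA 0 to 3 for MIST1 minus parental and 0 for the step between the lines. The step could not be fitted without a parental array. MIST1 minus GFP control ranged from -0.098 to 0.14 for TRAF6, -0.0093 to 0.084 for NFKBIA, -0.12 to 0.18 for NFKB2 and -0.14 to 0.27 for RELB. CXCL8 ranged from -0.61 to 0.19 for MIST1 minus parental, and RELB from -0.22 to 0.10 for the step between the lines.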
